A study of Homo sapiens with 14 samples.

Results

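The untreated expression state of T-cell acute lymphoblastic leukemia (T-ALL) lines that differ in their response to methotrexate (MTX) was compared on the 7 vehicle arrays of a series of 14. The MTX-high group held HPB-ALL, Jurkat and Molt-4, lines whose MTX IC50 (the dose that lowers viability by a fixed share in a dye-based assay) was over 20 nM, and the MTX-low group held CCRF-CEM, P12-ICHIKAWA, ALL-SIL and TALL-1, with an IC50 under 20 nM. Molt-4 was the line just inside the MTX-high group, at 23 nM, and ALL-SIL the line just outside it, at 18 nM. A shorter assay of the same drug ordered the lines differently. In it the study found HPB-ALL, P12-ICHIKAWA and ALL-SIL resistant, of which P12-ICHIKAWA and ALL-SIL are MTX-low lines here. The group names therefore hold for the longer assay only. The 3 MTX-high lines, together with CCRF-CEM, were also those that prednisolone inhibited least, so that response to MTX and to prednisolone cannot be fully told apart over these lines.

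Every line is a human leukemia line long kept in culture. Each was exposed for 6 h to vehicle on 1 array and to AS605240, an inhibitor of phosphoinositide 3-kinase (PI3K), on another, and RNA was hybridized to oligonucleotide expression arrays that carry several probe sets for most genes. None of the 7 arrays described here saw MTX, and all 7 saw the vehicle, so the values are those of cells before any exposure to the drug. With 1 vehicle array per line, the line was the replicate, and the spread within a group holds differences between lines and between arrays together. P-values therefore set a group difference against this joint spread of lines and arrays, and hold for these lines only.

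MTX is a folate analogue. It enters cells mainly through the reduced folate carrier, is retained after folylpolyglutamate synthase adds glutamate residues, and blocks enzymes that regenerate and use folates, among them, as polyglutamates, thymidylate synthase and enzymes of purine synthesis, so that dividing cells run short of DNA precursors. Removal of the glutamates by gamma-glutamyl hydrolase and export by ABC transporters lower the amount retained. In acute lymphoblastic leukemia, transport, polyglutamation and the level of the target enzymes are the classical determinants of response.

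Measures of array quality overlapped between the groups. Median signal lay between 19.92 and 24.53 and the share of probe sets over a signal of 50 between 36.62% and 39.35%, and no array measure passed the threshold between the groups (exact two-sided permutation tests, p between 0.457 and 0.8, the smallest p that 3 against 4 arrays allow being 0.0571). All 7 lines carried T-cell genes: 6 of 7 T-cell markers (CD3D, CD3E, CD3G, CD5, CD7 and LCK) had a signal over 50 in every line, and CD2 in 4. The B-cell markers MS4A1, CD22 and PAX5 were under 50 in every line, whereas CD79A reached 287 and CD79B 160. The summed signal of the 5 measured B-cell markers was 59.5 to 296 in MTX-high lines and 204 to 388 in MTX-low lines. The 5 measured myeloid markers summed to 159 to 256 in MTX-high lines and 143 to 197 in MTX-low lines, with LYZ the only one of them over a signal of 50 in every line.

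The 2 groups were not separate expression classes. Between lines, levels on the log2(signal + 16) scale over all genes correlated at 0.953 for Jurkat with Molt-4, but HPB-ALL correlated with these 2 MTX-high lines at 0.908 and 0.909 and with the 4 MTX-low lines at 0.909 to 0.913. None of the 6 principal components placed all MTX-high lines on one side of all MTX-low lines, the first of them carrying 27.9% of the variance and the second 25.5%. P12-ICHIKAWA correlated with TALL-1 at 0.994, far above every other pair, so these 2 MTX-low lines cannot be taken as independent, and the calls, the genes named by rule and the main lists were also compared with their mean counted as 1 line.

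Of 19775 genes tested, 6 passed the limma thresholds (Benjamini-Hochberg adjusted p under 0.05 and a change over 1.5-fold), which is 0.0303% of genes. CYB5A, SPART, SPATS2L, DNAH14 and KIRREL1 were higher in MTX-high lines (0.0253%) and TMEM72 was lower (0.00506%). Before adjustment 1553 genes (7.85%) had a limma p under 0.05, 868 of them higher (4.39%) and 685 lower (3.46%). With P12-ICHIKAWA and TALL-1 averaged, 3 lines stood against 3, limma called 0 genes, and 863 (4.36%) had an unadjusted p under 0.05. All 6 genes kept their direction and their separation of the lines in that comparison, which averaging lines of the same group cannot undo. Their limma adjusted p there lay between 0.0757 and 0.232. Levels below are log2(signal + 16), on which 4.0 stands for a signal near 0, and are given in the order HPB-ALL, Jurkat and Molt-4 for the MTX-high group, and CCRF-CEM, P12-ICHIKAWA, ALL-SIL and TALL-1 for the MTX-low group.

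CYB5A encodes cytochrome b5, a haem protein that passes electrons to enzymes of lipid and steroid metabolism in the endoplasmic reticulum. Its level was 10.02, 8.37 and 8.56 in MTX-high lines, against 4.14, 4.0, 4.01 and 4.13 in MTX-low lines. All 3 MTX-high lines showed a clear signal and all 4 MTX-low lines lay at the floor of the scale, with a difference of 4.91 ± 0.385 (log2, SE, limma adjusted p = 0.0207; adjusted p = 0.193 with the pair averaged). The mean MTX-low signal was 0.843, so the size of this difference is set by the 16 added before the log2: it was 6.69 with 4 added and 3.11 with 64 added. The same holds for SPART, DNAH14 and KIRREL1, whose MTX-low signals also lay near 0, and for TMEM72, whose MTX-high signals did. The pattern was shared by all 4 CYB5A probe sets, whose differences ran from 1.85 to 4.91 with no overlap of lines.

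SPART encodes spartin, a protein of endosomes and lipid droplets that is lost in a hereditary spastic paraplegia. Its level was 8.55, 7.68 and 8.20 in MTX-high lines, against 4.15, 4.02, 4.05 and 4.21 in MTX-low lines, a difference of 4.03 ± 0.204 (SE, limma adjusted p = 0.00567; 0.0757 with the pair averaged). The smallest adjusted p of all genes was that of SPART. Its probe sets did not agree, however: a second one also separated the lines (difference of 1.41), while the remaining 2 gave differences of -0.19 and -0.47 with overlapping lines, and these 3 were all dim, at 4.06 to 6.11.

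SPATS2L, which encodes an RNA-binding protein of the nucleolus and stress granules, was the only one of the 5 higher genes off the floor in all MTX-low lines. It was still dim there, with a mean signal of 32.5. Its level was 8.51, 9.45 and 9.47 in MTX-high lines, against 5.68, 5.49, 5.51 and 5.70 in MTX-low lines. The difference was 3.55 ± 0.248 (SE, limma adjusted p = 0.0207, and 0.157 with the pair averaged). It was 3.93 with 4 added before the log2 and 2.67 with 64 added. DNAH14, a heavy chain of axonemal dynein, had levels of 7.59, 7.59 and 6.63 in MTX-high lines, against 4.17, 4.0, 4.02 and 4.09 in MTX-low lines. KIRREL1, an adhesion protein of the immunoglobulin superfamily, had levels of 6.41, 6.80 and 6.97 in MTX-high lines, against 4.33, 4.55, 4.09 and 4.02 in MTX-low lines. The differences were 3.20 for DNAH14 and 2.48 for KIRREL1 (limma adjusted p = 0.0207 for both), and the other probe sets of SPATS2L, DNAH14 and KIRREL1 were dim and differed by at most 0.37.

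TMEM72, a membrane protein of little known function, was the only gene that passed as lower. Its level was 4.21, 4.39 and 4.34 in MTX-high lines, against 6.08, 6.26, 6.74 and 6.19 in MTX-low lines (difference of -2.01 ± 0.175, SE, limma adjusted p = 0.0349; 0.232 with the pair averaged). Its mean signal was 3.9 in MTX-high lines and 65.2 in MTX-low lines, so that even the higher group was dim. A second probe set separated the lines the same way, with a difference of -0.76. In bulk RNA, fewer expressing cells and less RNA per cell cannot be told apart.

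**Figure D1:**
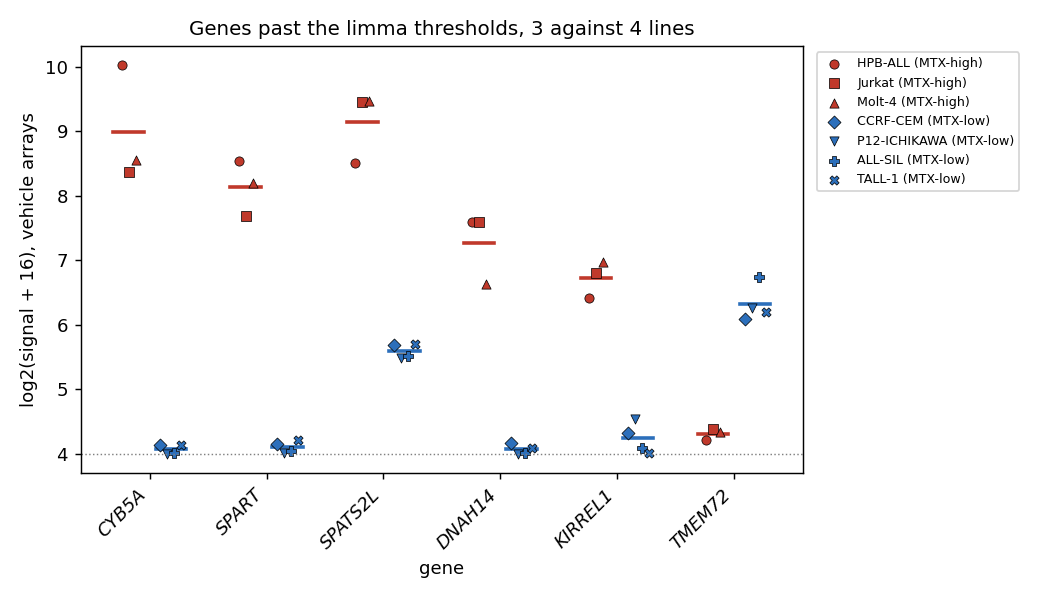
Level of the 6 genes past the limma thresholds, as log2(signal + 16) on the vertical axis, in each vehicle array (points, 1 per line) with the group mean (bar); red, at left, are the 3 MTX-high lines and blue the 4 MTX-low lines. CYB5A, SPART and DNAH14 lay at the dotted floor of 4 in all MTX-low lines, and TMEM72 near it in all MTX-high lines.

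The promoter windows of 3 of these genes are shown because their signals lay near the floor in one of the groups. Sequences were read from RefSeq (GRCh38.p14), where 5 of the 6 genes were matched, from 250 bases before to 50 bases after the start. Capitals mark the dinucleotide CG (counted on the strand shown, its own reverse complement, so that both strands hold the same number). The windows are chr18:74291914-74292213 (minus strand) for CYB5A, chr13:36346345-36346644 (minus strand) for SPART, 1 of its 3 windows, and chr10:44911087-44911386 (plus strand) for TMEM72.
CYB5A: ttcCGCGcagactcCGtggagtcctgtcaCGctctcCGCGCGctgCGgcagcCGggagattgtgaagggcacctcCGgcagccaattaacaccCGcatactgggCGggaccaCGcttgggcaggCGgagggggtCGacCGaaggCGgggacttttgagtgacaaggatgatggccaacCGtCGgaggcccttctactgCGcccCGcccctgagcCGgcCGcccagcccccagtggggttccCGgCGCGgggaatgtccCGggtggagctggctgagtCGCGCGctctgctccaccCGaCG
SPART: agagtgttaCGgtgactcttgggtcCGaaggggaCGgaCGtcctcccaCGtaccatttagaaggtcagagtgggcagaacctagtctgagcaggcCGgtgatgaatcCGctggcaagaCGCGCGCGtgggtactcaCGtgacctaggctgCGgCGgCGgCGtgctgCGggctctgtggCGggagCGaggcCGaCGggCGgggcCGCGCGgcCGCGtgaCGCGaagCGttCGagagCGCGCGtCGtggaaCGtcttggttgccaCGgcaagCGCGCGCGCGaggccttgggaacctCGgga
TMEM72: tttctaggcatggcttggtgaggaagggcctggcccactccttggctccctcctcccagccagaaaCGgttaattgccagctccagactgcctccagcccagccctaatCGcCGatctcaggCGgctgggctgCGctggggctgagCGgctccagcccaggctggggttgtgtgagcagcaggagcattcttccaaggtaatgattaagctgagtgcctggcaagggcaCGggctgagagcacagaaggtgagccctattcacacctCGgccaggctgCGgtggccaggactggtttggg
The CYB5A window held 32 CG (18.9% of 35116 windows held as many or more), the SPART window 43 (4.98%) and the TMEM72 window 9 (58.4%), against a median of 14 over all windows, 96% of which hold at least 1. The other SPART windows held 6 and 19, the DNAH14 windows 21 and 22 and the SPATS2L windows 13 and 1, so the higher genes had both CG-rich and CG-poor windows. These counts describe the windows only.

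The same lines were compared on their AS605240 arrays, which share the lines with the vehicle arrays and are not independent of them. SPATS2L alone passed there (0.00506% of genes, difference of 3.47, limma adjusted p = 0.00195). CYB5A differed by 4.55 and SPART by 3.77 (adjusted p = 0.0502 for both), TMEM72 by -2.08 (0.0655), KIRREL1 by 2.09 (0.162) and DNAH14 by 2.48 (0.206). All 6 genes kept their direction and the separation of MTX-high from MTX-low lines after 6 h of AS605240.

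Because few genes passed, genes were also counted whose lines did not overlap, all 3 MTX-high lines lying above or below all 4 MTX-low lines. There were 1499 such genes, 7.58% of all, with 801 higher (4.05%) and 698 lower (3.53%) in MTX-high lines, and 583 of them (2.95%) also differed over 1.5-fold, 319 higher (1.61%) and 264 lower (1.34%). With P12-ICHIKAWA and TALL-1 averaged, 599 genes (3.03%) met both conditions. To fill each direction to 10 genes, 14 more were taken from those with no overlap, a change over 2-fold and a mean signal over 50 in the higher group (125 genes higher, 0.632%, and 104 lower, 0.526%), by their limma p. None of these 14 passed the adjusted threshold, and with P12-ICHIKAWA and TALL-1 averaged their adjusted p ran from 0.444 to 0.969.

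Of the 5 added on the higher side, CADM1, an adhesion protein of the immunoglobulin superfamily, had the largest difference. Its level was 9.65, 7.81 and 8.30 in MTX-high lines, against 4.67, 4.61, 4.75 and 4.56 in MTX-low lines (difference of 3.94, limma adjusted p = 0.0796). PTCRA, the pre-T-cell receptor alpha chain of immature thymocytes, had levels of 9.03, 8.54 and 9.09 in MTX-high lines, against 5.05, 6.38, 5.10 and 6.31 in MTX-low lines (difference of 3.18, limma adjusted p = 0.161), and all 3 of its probe sets separated the lines. RCAN1, an inhibitor of the phosphatase calcineurin, differed by 1.31 (adjusted p = 0.161), and CAND2 and TCEAL1 by 2.70 and 1.46 (adjusted p = 0.0796 and 0.096). The result for CADM1 rests on a single probe set, since its others were dim and differed by only -0.14 to 0.40. Likewise the second CAND2 probe set was dim and gave -0.19. The other RCAN1 probe sets gave 0.79, with separated lines, and 0.09, with overlapping lines.

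On the lower side, CPS1, which encodes the carbamoyl phosphate synthetase of the urea cycle, had levels of 4.19, 4.84 and 4.28 in MTX-high lines, against 6.96, 6.32, 6.39 and 6.09 in MTX-low lines (difference of -2.00, limma adjusted p = 0.161). DDIT4, an inhibitor of the growth kinase complex mTORC1, was bright in all lines, at 10.01, 9.97 and 10.13 in MTX-high lines, against 10.92, 11.40, 10.96 and 11.11 in MTX-low lines (difference of -1.06, limma adjusted p = 0.203). TEX19, a gene known mainly from germ cells, had levels of 5.50, 7.10 and 7.66 in MTX-high lines, against 9.58, 9.63, 10.68 and 9.40 in MTX-low lines (difference of -3.07, adjusted p = 0.359). The semaphorin SEMA4A and the transmembrane prolyl hydroxylase P4HTM differed by -2.48 and -2.45, and the other 4 (CYTH4, GNG2, MBOAT7 and CARD8-AS1) by -1.03 to -1.79. Second probe sets of CPS1, SEMA4A and CARD8-AS1 also separated the lines, whereas that of MBOAT7 (-0.02) and the others of CYTH4 (-0.15 and -0.24) did not. CARD8-AS1 is an antisense RNA, and whether its probe set reads that strand alone was not tested.

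All 20 genes kept their direction on the AS605240 arrays, and 19 of the 20 kept the separation of the lines. On those arrays 7.51% of all genes showed it in either direction. The 20 genes were chosen by their difference on the vehicle arrays of the same lines, so that share is not a matched background for them. CARD8-AS1 was the exception, at 6.06, 5.14 and 7.31 in MTX-high lines and 7.22, 8.31, 7.40 and 8.29 in MTX-low lines. The difference of CADM1 was 4.48 on those arrays against 3.94 on the vehicle arrays, and that of DNAH14 was 2.48 against 3.20.

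**Figure D2:**
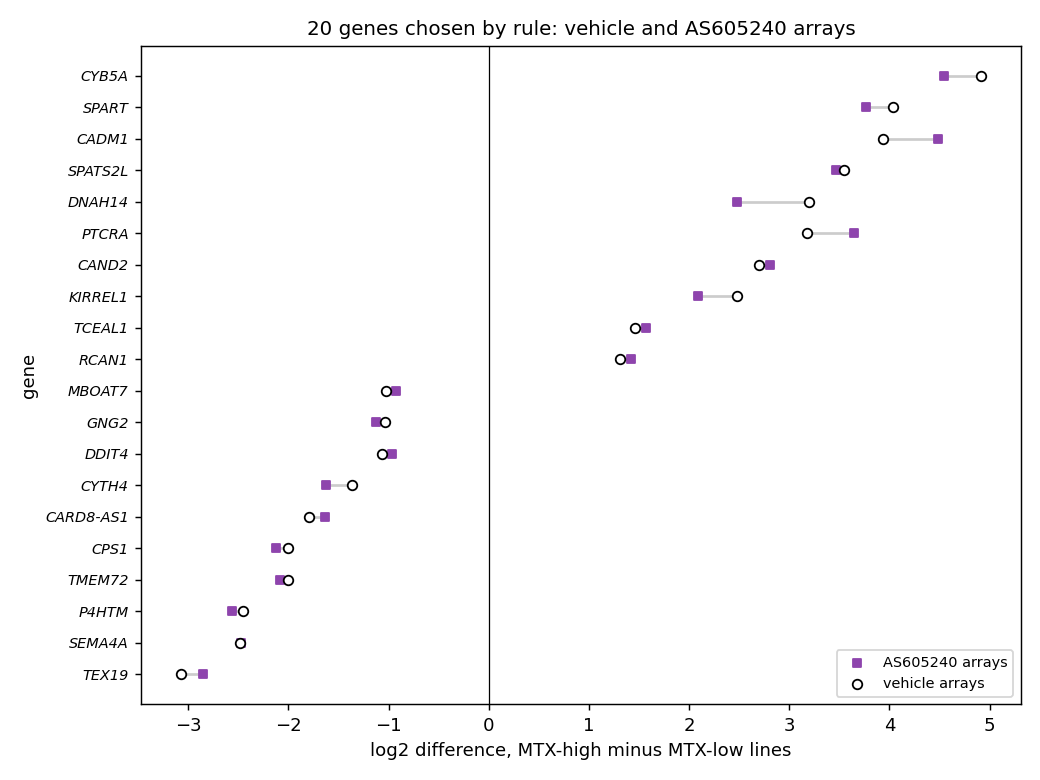
Difference between MTX-high and MTX-low lines (horizontal axis, log2, MTX-high minus MTX-low) for 20 genes chosen by rule, 10 in each direction, on the AS605240 arrays (filled squares) and on the vehicle arrays (open circles). Both marks lay on the same side of 0 for all 20 genes.

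Of 15 measured genes that carry, retain or export MTX, 0 passed in limma, 1 had an unadjusted p under 0.05, and 2 (13.3%, against 7.58% of all genes) had lines that did not overlap, with a median difference of 0.18 against 0.01 over all genes. SLC19A1, the reduced folate carrier, had levels of 8.09, 8.22 and 7.93 in MTX-high lines, against 7.46, 7.54, 8.14 and 7.75 in MTX-low lines. The lines overlapped through ALL-SIL, and the difference was 0.36 with a 95% interval from -0.08 to 0.80 (limma adjusted p = 0.695), and 0.33 with an interval from -0.18 to 0.84 with the pair averaged. All 7 SLC19A1 probe sets gave a difference above 0 (0.03 to 0.55), each with overlapping lines.

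FPGS, which adds the glutamates, had levels of 8.02, 8.67 and 8.52 in MTX-high lines, against 8.30, 7.67, 8.46 and 7.53 in MTX-low lines, a difference of 0.42 with a 95% interval from -0.26 to 1.09. GGH, the hydrolase that removes them, had levels of 8.32, 9.05 and 9.07 in MTX-high lines, against 9.31, 8.65, 4.25 and 8.58 in MTX-low lines. ALL-SIL alone lay near the floor, and the other 3 MTX-low lines overlapped with the MTX-high lines, so that the difference of 1.12 had an interval from -1.72 to 3.96.

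Among the exporters, ABCC1 was the one with a clear signal and lines that did not overlap. Its level was 9.59, 9.14 and 9.04 in MTX-high lines, against 8.22, 8.99, 9.04 and 8.86 in MTX-low lines, with Molt-4 and ALL-SIL 0.01 apart (difference of 0.48, limma adjusted p = 0.69). A second ABCC1 probe set separated the lines further, at 8.15, 8.15 and 7.86 in MTX-high lines, against 7.23, 7.18, 7.42 and 7.28 in MTX-low lines (difference of 0.77, adjusted p over all probe sets = 0.31). On the AS605240 arrays ABCC1 differed by 0.40 and the lines overlapped. ABCC4 had levels of 7.57, 7.34 and 6.54 in MTX-high lines, against 7.87, 7.37, 4.0 and 7.31 in MTX-low lines, again with ALL-SIL at the floor. ABCG2 was measurable in Molt-4, at 6.69, against 4.07 and 4.56 in the other MTX-high lines and 4.0 to 4.90 in MTX-low lines. ABCC5 differed by -0.07 and the dim ABCC2, ABCC3 and ABCB1 by -0.13 to 0.18. Among the other importers and folate receptors, SLC46A1, FOLR1, FOLR2 and SLCO1B1 differed by -0.25 to 0.10, and FOLR3 by 0.42 at a dim signal.

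Of 23 listed enzymes of the folate cycle, 20 were measured, 0 passed in limma and 1 had an unadjusted p under 0.05. The lines of 2 (10%, against 7.58% of all genes) did not overlap, and the median difference was 0.04. TYMS, thymidylate synthase, was among the brightest, at 12.37, 12.77 and 12.24 in MTX-high lines, against 12.57, 12.13, 12.33 and 12.15 in MTX-low lines (difference of 0.16, 95% interval from -0.25 to 0.58). MTHFD1 and MTHFD2, which interconvert one-carbon forms of folate in cytosol and mitochondria, differed by 0.03 and -0.15, and the methionine synthase gene MTR by -0.07.

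SHMT2, the mitochondrial serine hydroxymethyltransferase that feeds one-carbon units into the cycle, had the smallest p of these 35 genes. Its level was 10.37, 10.21 and 10.04 in MTX-high lines, against 10.78, 10.72, 10.73 and 10.66 in MTX-low lines. Every MTX-high line lay below every MTX-low line, with a difference of -0.52 (95% interval from -0.79 to -0.25, limma adjusted p = 0.446; adjusted p = 0.969 with the pair averaged), and all 3 SHMT2 probe sets showed this order, with differences of -0.57, -0.52 and -0.39. On the AS605240 arrays the difference was -0.14 and the lines overlapped. MTHFD2L, a mitochondrial relative of MTHFD2, had levels of 7.39, 7.76 and 8.94 in MTX-high lines, against 7.61, 6.99, 6.03 and 7.03 in MTX-low lines (difference of 1.11, adjusted p = 0.644). SLC25A32, the mitochondrial folate carrier, differed by 0.69 (interval from -0.18 to 1.56), and the 13 members not named so far by -0.29 to 0.83, the ends being AMT of the glycine cleavage system and MTFMT, which formylates the mitochondrial initiator tRNA. Over both lists, 4 of 35 genes had lines that did not overlap, as did 7.58% of all genes. The dim FOLR3 and MTHFD1L were 2 of them, with gaps between the groups of only 0.033 and 0.009. Of the 35 genes, 12 were under a signal of 50 in every line, among them FOLR3, with levels of 4.25 to 5.05.

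**Figure D3:**
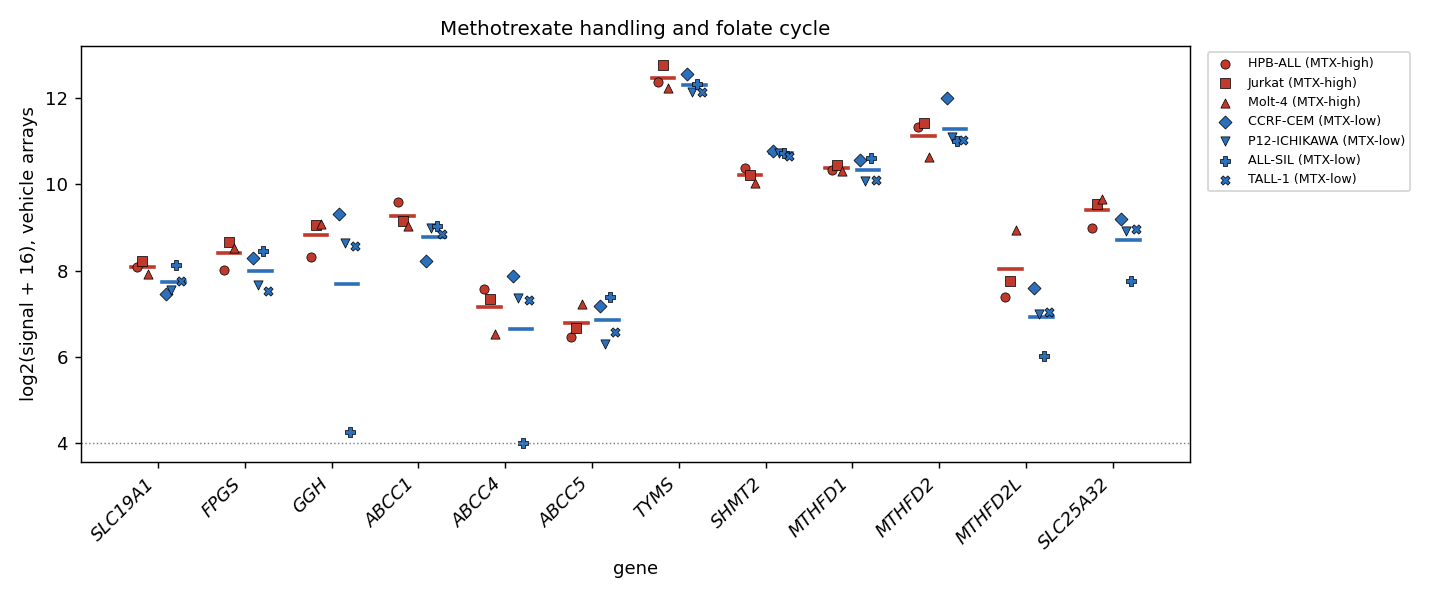
Level of 12 genes of methotrexate handling and the folate cycle (log2(signal + 16), vertical axis) in each vehicle array, red at left for the 3 MTX-high lines and blue for the 4 MTX-low lines, with group means as bars. Groups overlapped for all but ABCC1 and SHMT2, and ALL-SIL lay near the dotted floor for GGH and ABCC4.

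In pathways that depend on folate 0 genes passed the limma thresholds. Over all genes, 7.58% separated the lines. In de novo purine synthesis 0 of 12 measured genes separated the lines (median difference 0.16), and ATIC, an enzyme that MTX polyglutamates inhibit, differed by 0.39 (95% interval from -0.06 to 0.84). In pyrimidine and thymidylate synthesis 1 of 14 did (7.14%, median 0.23): DCTPP1, which breaks down non-canonical pyrimidine nucleotides, with levels of 10.88, 10.24 and 10.54 in MTX-high lines, against 9.87, 9.67, 9.99 and 9.66 in MTX-low lines. CTPS1, the CTP synthase, differed by 0.66 with overlapping lines, as did the deaminase DCTD by 1.07. In nucleoside salvage 1 of 19 did (5.26%, median 0.18): ADA, adenosine deaminase, with levels of 11.98, 12.24 and 11.90 in MTX-high lines, against 11.44, 11.43, 11.12 and 11.27 in MTX-low lines (difference of 0.72, limma adjusted p = 0.399; 0.969 with the pair averaged). The kinase TK2 differed by 0.90 with overlapping lines, and the nucleotide hydrolase SAMHD1 by -1.63, with ALL-SIL at 12.02 and the other lines at 6.74 to 7.76. In the methionine cycle 1 of 14 did (7.14%, median 0.16), MAT2A, which makes S-adenosylmethionine, with a difference of 0.59. On the AS605240 arrays the lines overlapped for DCTPP1 and MAT2A but not for ADA. CBS, which opens the path from homocysteine to cysteine, differed by 1.55 with overlapping lines, at 4.28, 7.86 and 8.53 in MTX-high lines, against 7.82, 4.64, 4.23 and 4.68 in MTX-low lines. DCTD, SAMHD1 and CBS are named after their values were seen.

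T-cell stage and receptor genes had the highest share of separated lines among the lists with over 10 measured genes. Of 41 measured, 0 passed in limma, and 8 (19.5%, against 7.58% of all genes) did not overlap, 6 higher and 2 lower in MTX-high lines, with a median difference of 0.24. With P12-ICHIKAWA and TALL-1 averaged, 9 of 41 did not overlap, against 9.61% of all genes. PTCRA is described above, and CD1D follows from the same rule, while CD1A, CD1B, CD1C, CD1E, CD3G, ZAP70, CCR7 and IL2RG are named after their values were seen. The CD1 molecules present lipids to T cells and mark the cortical stage of thymocytes. CD1D had levels of 8.45, 8.92 and 9.64 in MTX-high lines, against 4.56, 6.24, 4.80 and 6.60 in MTX-low lines (difference of 3.45, limma adjusted p = 0.333; 0.794 with the pair averaged). CD1C had levels of 9.27, 8.69 and 8.68 in MTX-high lines, against 4.62, 6.64, 4.32 and 7.25 in MTX-low lines (difference of 3.17, adjusted p = 0.477). CD1A had levels of 11.10, 9.77 and 10.41 in MTX-high lines, against 4.94, 8.33, 5.96 and 8.89 in MTX-low lines (difference of 3.40, adjusted p = 0.556).

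For all 3 CD1 genes CCRF-CEM and ALL-SIL lay well below P12-ICHIKAWA and TALL-1, so that the MTX-low group was itself divided. CD1B and CD1E were not separated: CD1B was 12.30, 8.39 and 9.80 in MTX-high lines, against 4.27, 10.71, 7.67 and 11.20 in MTX-low lines, and Molt-4 lay below TALL-1 for CD1E, at 9.85 against 10.07. The receptor component CD3G and the receptor-proximal kinase ZAP70 showed smaller differences. ZAP70 had levels of 10.59, 10.04 and 9.52 in MTX-high lines, against 9.08, 8.74, 8.97 and 8.79 in MTX-low lines, and CD3G 9.13, 10.20 and 8.80 in MTX-high lines, against 8.40, 8.12, 8.34 and 8.13 in MTX-low lines. The 2 lower genes were CCR7, a receptor for homing to lymph nodes (difference of -1.85), and IL2RG, the common cytokine receptor gamma chain (-0.65).

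Among Notch receptors and targets, 2 of 18 (11.1%, against 7.58% of all genes, median 0.23) did not overlap, PTCRA and NOTCH3. NOTCH3 had levels of 8.36, 7.70 and 8.52 in MTX-high lines, against 6.65, 5.90, 7.36 and 5.51 in MTX-low lines (difference of 1.84, limma adjusted p = 0.478). On the AS605240 arrays NOTCH3 differed by 1.55 and the lines overlapped. NOTCH1, the receptor most often mutated in T-ALL, was 9.56, 8.60 and 9.25 in MTX-high lines and 9.25, 8.47, 9.90 and 8.15 in MTX-low lines, with a difference of 0.20. The Notch targets HES4 and DTX1, also named after their values were seen, had lines that overlapped through CCRF-CEM for HES4, at 9.17, and through ALL-SIL for DTX1, at 9.38. Of 23 measured T-ALL transcription factors 0 separated the lines, with a median difference of -0.37, which was 0.02 without CCRF-CEM, -0.11 without Molt-4 and -0.15 without ALL-SIL.

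**Figure D4:**
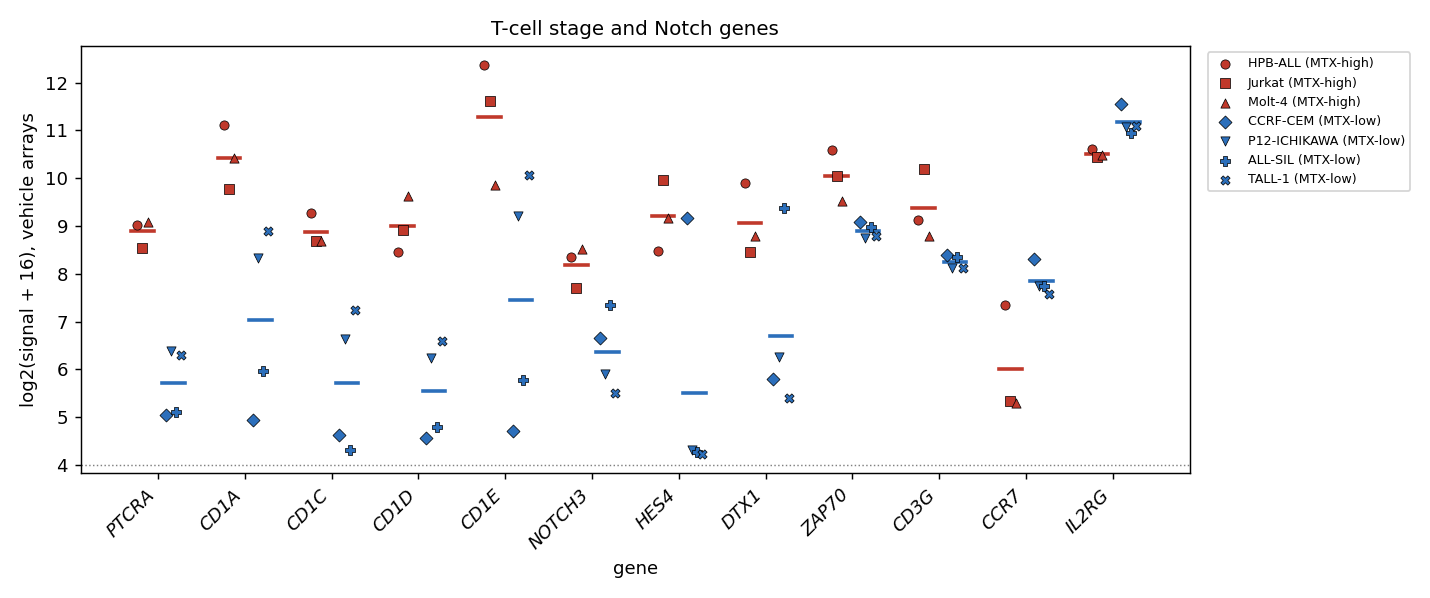
Level of 12 T-cell stage and Notch genes (log2(signal + 16), vertical axis) in each vehicle array, red at left for the 3 MTX-high lines and blue for the 4 MTX-low lines, with group means as bars. PTCRA lay higher in every MTX-high line, and the CD1 genes spread widely among the MTX-low lines, with CCRF-CEM or ALL-SIL lowest.

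Of 37 interferon response genes 0 passed the limma thresholds and 7 (18.9%, against 7.58% of all genes, median 0.18) did not overlap, 3 higher and 4 lower. With P12-ICHIKAWA and TALL-1 averaged, 7 did not overlap either (18.9%, median 0.10), against 9.61% of all genes. The lower ones were led by IFITM2 and its neighbours IFITM1 and IFITM3, membrane proteins that block the entry of viruses. IFITM2 had levels of 5.79, 9.17 and 4.99 in MTX-high lines, against 11.25, 11.22, 12.66 and 11.20 in MTX-low lines, the largest difference of all listed genes at -4.93 (limma adjusted p = 0.421; 0.969 with the pair averaged). IFITM3 had levels of 6.50, 8.74 and 5.45 in MTX-high lines, against 10.65, 10.65, 12.63 and 10.58 in MTX-low lines, and IFITM1 10.85, 8.76 and 9.49 in MTX-high lines, against 11.88, 11.88, 12.59 and 11.84 in MTX-low lines. IFITM2 and IFITM3 ordered the MTX-high lines alike, with Jurkat highest, whereas Jurkat was the lowest of them for IFITM1. The 3 genes are related in sequence, and whether their probe sets share signal was not tested, so the 3 values cannot be taken as separate observations. The higher ones were IRF8, a transcription factor of immune cells (difference of 1.47), the deconjugase USP18 (2.48) and the RNA sensor IFIH1 (1.57). SAMD9 (-0.47) was the remaining lower gene. IFITM1, IFITM3, USP18, IFIH1 and SAMD9 are named after their values were seen.

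Of the cell cycle and repair genes 0 passed the limma thresholds. Of 26 G1/S regulators 1 separated the lines (3.85%, median 0.21): CDKN1A, an inhibitor of cyclin-dependent kinases, with levels of 6.20, 5.53 and 5.06 in MTX-high lines, against 4.07, 4.14, 4.63 and 4.0 in MTX-low lines (difference of 1.39, limma adjusted p = 0.425). CCNE1, cyclin E1, differed by 1.38 with Jurkat and CCRF-CEM overlapping. Of 41 DNA replication genes 6 separated the lines (14.6%, against 7.58% of all genes), 2 higher and 4 lower. The list median was -0.07, and 0.09 without HPB-ALL. The differences were -0.65 for the origin recognition subunit ORC1 and -0.41 for the clamp loader subunit RFC1. Of 30 G2/M genes 2 did (6.67%, median -0.01), among them CCNB1 (0.48), and of 24 genes of uracil, mismatch and strand break repair 2 did (8.33%, median -0.05), the thymine glycosylase TDG at 0.61 and the nuclease MRE11 at -0.76. On the AS605240 arrays the lines overlapped for ORC1, CCNB1, TDG and MRE11 but not for CDKN1A and RFC1.

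In the PI3K and AKT pathway 3 of 27 genes did not overlap (11.1%, against 7.58% of all genes, median -0.03). PIK3R5, the regulatory subunit of PI3K gamma, had levels of 4.99, 5.60 and 5.50 in MTX-high lines, against 6.04, 7.63, 7.27 and 7.78 in MTX-low lines (difference of -1.82, limma adjusted p = 0.477). FOXO3, a transcription factor that AKT holds out of the nucleus, differed by -0.61, and the regulatory subunit PIK3R3, named after its values were seen, by 1.10. Among glucocorticoid receptor and induced genes 2 of 16 did not overlap (12.5%, against 7.58% of all genes, median -0.15). The phosphatase DUSP1 had levels of 8.11, 7.30 and 6.72 in MTX-high lines, against 6.55, 5.28, 5.37 and 5.57 in MTX-low lines (difference of 1.68, limma adjusted p = 0.478). NR3C1, the glucocorticoid receptor, also named after its values were seen, was 10.05, 8.52 and 8.31 in MTX-high lines, against 10.18, 10.02, 9.73 and 9.90 in MTX-low lines, with HPB-ALL among the MTX-low values.

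Among the remaining pathway lists the share was near that of all genes (7.58%) or under it. Of 39 ribosome biogenesis and Myc targets 1 did not overlap (2.56%, median 0.19), of 24 translation factors 2 (8.33%, median near 0), and of 15 BCL2 family genes, 19 cholesterol synthesis genes and 21 MHC genes 0 (medians of -0.01, 0.22 and -0.02). The cholesterol synthesis median was -0.21 without Jurkat, 0.46 without HPB-ALL and 0.43 without Molt-4. The lists of other cell types gave 2 of 9 B-cell markers (22.2%, CD79B, with a difference of -1.94, and the dim PAX5, with 0.31), and 0 of 12 myeloid, 0 of 7 erythroid and megakaryocyte and 0 of 10 epithelial and fibroblast markers. The part of CD79B-bearing cells or of any other cell type in these results was not tested.

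**Figure D5:**
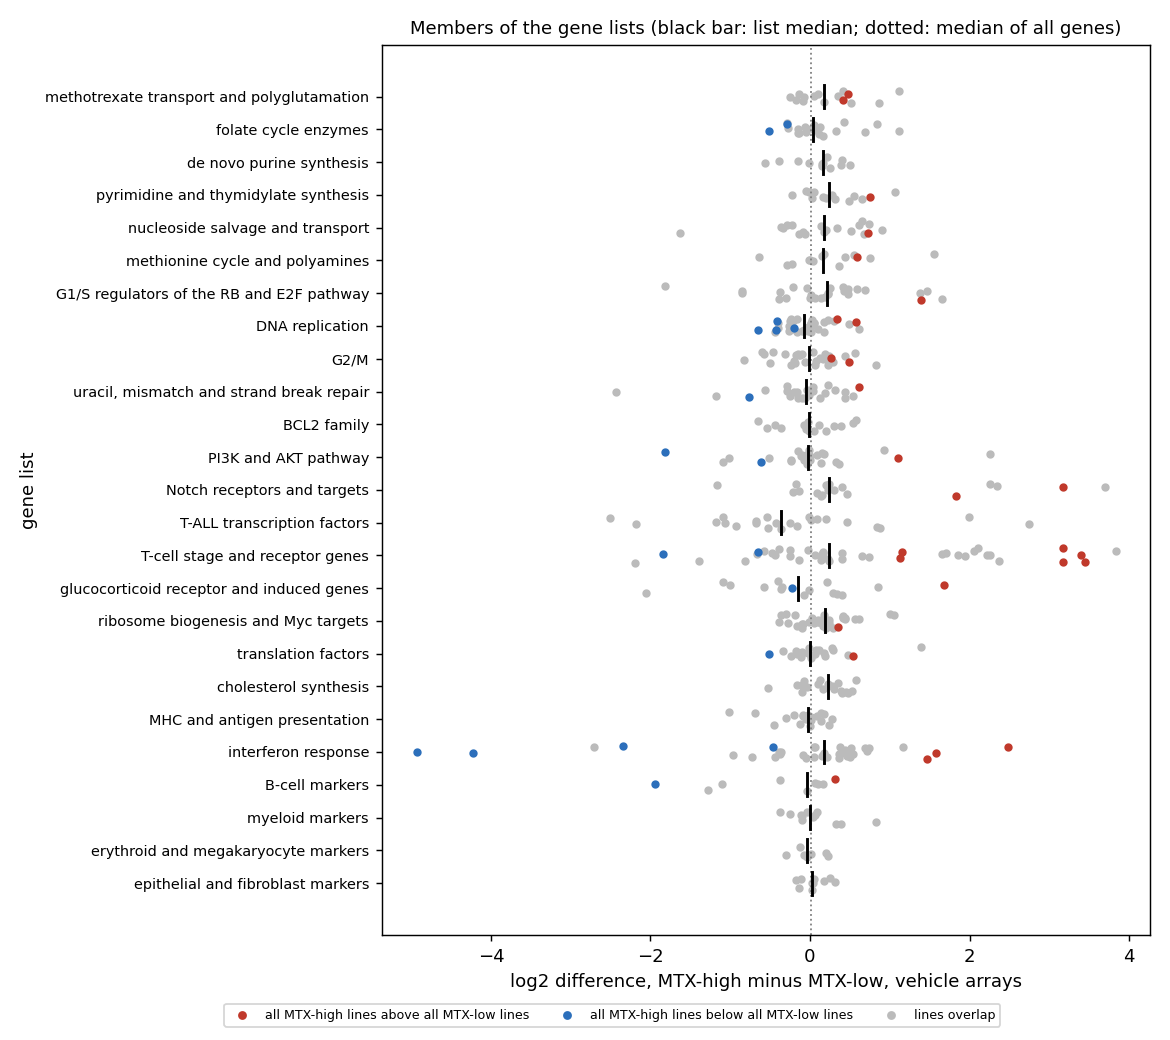
Difference between MTX-high and MTX-low lines (horizontal axis, log2, MTX-high minus MTX-low, vehicle arrays) for every measured member of the gene lists (points), with the list median (black bar) and the median of all genes (dotted line). Red points had all MTX-high lines above all MTX-low lines and blue points all below, most widely in the T-cell stage and interferon lists.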

How the data were processed

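Signals were measured on 14 oligonucleotide arrays, 1 vehicle and 1 AS605240 array for each of 7 T-ALL lines. The authors deposited linear intensity values per probe set, summarized with PLIER in Affymetrix Expression Console (per the labels, version 1.3.1.187), with no log taken. The study's methods name iterPLIER with 16 added, on a log2 scale. The deposited values fall under 16 on all 14 arrays, so 16 had not yet been added to them.

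Here 16 was therefore added before log2, which compresses dim signals. Of 54675 probe sets, 62 controls were left out, 41091 named 1 gene, 1801 several and 11721 none. For 41037 of those naming 1 gene the symbol was taken by gene ID, whether or not it changed. The brightest probe set naming that gene alone stood for each of 19775 genes, so probe sets that name several genes were not used. The array numbers limit precision.

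Groups followed the methotrexate IC50 of each line, over or under 20 nM. The 3 MTX-high and 4 MTX-low vehicle arrays were compared with limma 3.58.1 (R 4.3.3, lmFit and eBayes, 5 residual degrees of freedom, Benjamini-Hochberg over all genes, adjusted p under 0.05 and fold over 1.5). The script was tested on simulated data. Single array measures had exact permutation tests (SciPy 1.17.1). Genes were named by rule: up to 10 per direction past both thresholds, filled by p among genes with no overlap, fold over 2 and signal over 50, then all genes of the 2 methotrexate lists, then the 2 smallest p of each other list. XIST and Y-linked genes were left out of the named genes, and some items are not reported here. Members and lists were chosen with earlier results of these data known. Alternatives covered the offset, normalization, filters, probe set choice, the averaged pair, leaving out each line, the AS605240 arrays and the IC50 as covariate.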

Additional observations from a re-analysis of the deposited data

Results flagged for a closer look

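Of 100 named genes, 8 had 1 MTX-low line far from the other 3 by Dixon's criterion for 4 values, where chance marks about 1 in 20 groups of independent values. P12-ICHIKAWA and TALL-1 are nearly identical, so the 4 values are not independent and that rate does not hold here. The MTX-high group, with 3 lines, could not be tested this way. Levels are log2(signal + 16) on vehicle arrays.

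ALL-SIL stood apart for 3 genes. GGH, the hydrolase of MTX polyglutamates, was 4.248 in ALL-SIL and 8.576 to 9.314 in the other MTX-low lines. ABCC4, an exporter of MTX, was 4 in ALL-SIL and 7.312 to 7.873 in the others, and 2 further ABCC4 probe sets were also lowest in ALL-SIL, at 4.64 and 4.24. IFITM2 was 12.66 in ALL-SIL and 11.2 to 11.25 in the others. On the AS605240 array ALL-SIL was again low for GGH and ABCC4, at 4.20 and 4.10.

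CCRF-CEM stood apart for 5 genes. MTHFD2 was 11.99 in CCRF-CEM and 11 to 11.09 in the others, and MTR 8.936 in CCRF-CEM and 8.314 to 8.377 in the others. TK2, the mitochondrial thymidine kinase, was 6.042 in CCRF-CEM and 4.994 to 5.171 in the others, and CCNE1 7.568 in CCRF-CEM and 6.733 to 6.863 in the others. ABCG2 was 4.896 in CCRF-CEM and 4 to 4.069 in the others, all close to the floor.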

How the results depend on the processing

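The count of 6 called genes (limma) was 0 with P12-ICHIKAWA and TALL-1 averaged, 0 with an offset of 64 and 0 where a gene's probe sets were averaged, and 863, 1505 and 1498 genes then had an unadjusted p under 0.05, and 1 on the AS605240 arrays. It was 0 with log2 of the IC50 as a covariate (1412 genes at an unadjusted p under 0.05, smallest adjusted p 0.691). Without single lines it ran from 0 to 44: 44 without HPB-ALL, 12 without Jurkat, 3 without Molt-4, 20 without CCRF-CEM, 24 without ALL-SIL, and 0 without P12-ICHIKAWA or TALL-1 (846 and 877 genes at an unadjusted p under 0.05). The other settings gave 4 to 9 genes. All 6 genes kept their direction in every setting with 1 value per gene, though for separated lines several of these settings could not change it. In contrast, 2 SPART probe sets gave -0.19 and -0.47 and single dim ones of DNAH14 and KIRREL1 -0.03 and -0.04. TMEM72 was lost under quantile normalization and median centring.

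The count of 583 genes with no overlap and a change over 1.5-fold was 377 with an offset of 64, ran from 580 to 1763 without single lines (1763 without HPB-ALL, 949 without Jurkat, 958 without Molt-4, 1525 without CCRF-CEM and 962 without ALL-SIL), and was 439 to 802 otherwise. No called gene and no named gene with separated lines changed sign. For separated lines, leaving out a line, averaging the pair or changing the offset cannot change the sign, so those settings do not test it. Among the other named genes, 17 changed sign in at least 1 setting, as did 13 of 26 list medians, and without ALL-SIL the differences of GGH and ABCC4 were -0.03 and -0.37. With 7 arrays and signals of many genes near the floor, small differences of dim genes were not detectable. No paired analysis was possible because a line belongs to 1 group, has 1 vehicle array, and shares no replicate number with a line of the other group.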

Other observations

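The share of genes whose lines did not overlap differed between chromosomes, a description with no test. On chromosome 9, 6.19% of 776 genes were higher and 1.93% lower in MTX-high lines, and on chromosome 15, 6.05% of 612 genes were higher and 2.61% lower, against 4.05% and 3.53% of all genes. On chromosome 6 the order was the other way, with 3.21% of 1089 genes higher and 5.79% lower, and on chromosome 19, 1.74% of 1320 genes were higher and 4.55% lower. The median difference per chromosome stayed between -0.04 and 0.08 (log2).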
